A study of Homo sapiens with 12 samples.

Results

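The genes described here are ALDH1A3 and the other members of a short retinoic acid pathway list: the retinaldehyde dehydrogenases ALDH1A1, ALDH1A2 and ALDH1A3, the retinaldehyde reductase DHRS3, the binding protein CRABP2, the retinoic acid hydroxylase CYP26B1, and the nuclear receptors RARA, RARB and RARG. They make up 9 of the 18132 genes that at least 1 probe set of the array names alone. Each gene was read from the probe set with the highest mean over the 12 arrays, and its other probe sets served as a check. The list was chosen by a measured value: it was built around ALDH1A3 because its difference between OCM1 cells with and without CANT1 overexpression was already known. Every ALDH1A3 comparison that contains OCM1 is therefore a description with no test. The other members and the gene lists read further below were also chosen with earlier results of these data known. Counts of their genes that passed therefore describe the lists and are no independent test of them.

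Expression was measured on 12 Affymetrix arrays, 3 in each of 4 groups. The cells were MUM2B and OCM1, both labelled as human uveal melanoma, a cancer of pigment cells in the eye. The summed signal of pigment cell markers was far lower in MUM2B than in OCM1, as given below. Either line was studied as wild type and with overexpression of CANT1, a long noncoding RNA. The wild type cells were the controls, and the labels describe no empty vector, so CANT1 cannot be told apart from the vector or from selection. Replicate 1 carries a growth label that names puromycin selection for the overexpressing cells, and replicates 2 and 3 carry one that names DMEM with serum and no puromycin. Nothing in the labels states whether replicates came from separate cultures, so p-values cover array-to-array spread alone, possibly technical, and the small number of arrays limits their precision. Nor do the labels say whether an overexpressing line was a clone or a pool.

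Retinoic acid is made from vitamin A in a pair of steps. Retinol is oxidised to retinaldehyde, a step that DHRS3 runs in the opposite direction, and the ALDH1A enzymes then oxidise retinaldehyde irreversibly to retinoic acid. CRABP2 carries the acid to the nucleus and CYP26 enzymes degrade it. The receptors RARA, RARB and RARG pair with an RXR partner on DNA, typically at direct repeats of a hexamer, and RARB, DHRS3 and CYP26 genes are textbook targets of the pathway. In the eye these enzymes are best known for patterning the retina and for the visual cycle, and in melanocytic cells retinoic acid is known for slowing growth and promoting differentiation.

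The region upstream of a start site was available for all 9 genes, as 17 windows of 250 bases from RefSeq on GRCh38.p14. Windows were searched on both strands for direct repeats of the hexamer AGGTCA and of its common variants, which are spelled AGTTCA in some elements, GGGTCA in others, and in others again GGTTCA. Repeats spaced by 5 bases occurred in 1 of the 17 windows, ahead of a RARB start site, against 26 of 35116 windows in the whole table (0.0740%). No member's window held repeats spaced by 1 or 2 bases, which 34 and 11 of all windows did. The RARB window is shown because it holds the classical type of receptor element, given in capitals at chr3:25428210-25428226 on the plus strand, 53 to 37 bases before the start site. It covers chr3:25428013-25428262 and reads as follows.
RARB: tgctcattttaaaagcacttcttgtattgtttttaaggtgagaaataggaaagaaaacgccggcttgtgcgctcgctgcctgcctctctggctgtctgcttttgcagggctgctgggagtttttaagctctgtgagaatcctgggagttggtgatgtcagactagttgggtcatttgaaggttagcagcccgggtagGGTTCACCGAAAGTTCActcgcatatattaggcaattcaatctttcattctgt
The window of ALDH1A3, chr15:100879581-100879830 on the plus strand, is shown beside it because this gene had the greatest OCM1 difference of the list over 12 arrays, and it holds none of the hexamers.
ALDH1A3: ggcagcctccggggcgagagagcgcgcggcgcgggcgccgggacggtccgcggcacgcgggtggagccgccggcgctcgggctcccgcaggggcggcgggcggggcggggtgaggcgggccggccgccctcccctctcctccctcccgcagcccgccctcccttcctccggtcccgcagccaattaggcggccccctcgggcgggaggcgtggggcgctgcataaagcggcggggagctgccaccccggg
A single hexamer was found in 33.8% of all windows. A match is a description of letters and no evidence of binding, and a window without one says nothing about the receptors.

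Levels are log2 of the scaled signal plus 32, a scale that understates the fold of dim genes. Differences are log2 values on that scale, ± is the standard error unless SD is written, and a gene passed where its limma p-value, adjusted by Benjamini-Hochberg over all genes tested, was under 0.05. A gene was tested where its signal reached 100 on at least 3 arrays, which 8 of the 9 members did over 12 arrays and 7 did on replicates 2 and 3 alone; ALDH1A2 missed both and CRABP2 the second. The 12-array fit held a term for replicate 1 against replicates 2 and 3. Within-set values are given beside it because, across genes, the CANT1 differences of replicate 1 correlated with those of replicates 2 and 3 at r = -0.618 in MUM2B and -0.218 in OCM1. The OCM1 wild type array of replicate 1 stood apart: its mean correlation with its own line was 0.829, against 0.936 to 0.978 for the other 11 arrays. The 3' to 5' log2 ratio of ACTB, a sign of RNA quality, was 2.15 to 2.51 on the replicate 1 arrays, above the 0.473 to 0.911 of all others. Pigment cell markers, 13 of 14 on the array, summed to a signal of 1385 to 1827 in MUM2B, where MLANA, TYRP1 and S100B stayed below 100. On each MUM2B array 5 to 7 of the 13 reached 100, against 11 to 12 in OCM1. MITF, SOX10, PMEL and TYR read 102 to 197 in MUM2B, and RAB27A read 451 to 613. In OCM1 the pigment cell markers summed to 82266 to 91739, except for 14993 on the wild type array of replicate 1. Of other cell types' markers, EPCAM and CDH1 (epithelial), PTPRC and CD3E (immune), DCN, COL1A1, COL1A2 and COL3A1 (fibroblast) and TEK, CLDN5 and EMCN (endothelial) stayed below 100 on every array. Others of these lists did not: CLDN4 (epithelial) read 268 to 1268, VWF (endothelial) 112 to 226 and NKG7 (immune) 118 to 143. CD68 and CSF1R (immune) reached 523 and 133, PECAM1 and KDR (endothelial) 579 and 198, and FAP and PDGFRB (fibroblast) 379 and 149. The keratin genes KRT7, KRT8 and KRT18 and the endothelial cadherin CDH5 were bright in MUM2B, with signals of 2929 to 15102 over the keratins and 2385 to 4634 for CDH5, and the matrix gene LUM reached 1437 in OCM1. In such bulk RNA, fewer cells of a type and less RNA per cell cannot be told apart.

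ALDH1A3, which makes retinoic acid from retinaldehyde, was high in MUM2B with or without CANT1 and lower in wild type OCM1, and OCM1 cells with CANT1 lay close to the MUM2B level on replicates 2 and 3. Wild type MUM2B read 13.06 on replicate 1 and 12.67 and 12.70 on replicates 2 and 3, and MUM2B with CANT1 read 12.51, 12.78 and 12.92. Wild type OCM1 read 7.87, 10.25 and 10.09, and OCM1 with CANT1 read 10.82, 12.87 and 12.73. No wild type OCM1 array reached any array of another group, while the replicate 1 array of OCM1 with CANT1 lay below all MUM2B arrays and the other two lay among them. The group means were 9.41 ± 1.33 SD in wild type OCM1, 12.14 ± 1.14 in OCM1 with CANT1, 12.73 ± 0.21 in MUM2B with CANT1 and 12.81 ± 0.22 in wild type MUM2B (n = 3 each). Wild type OCM1 stood alone and the 3 higher groups overlapped their neighbours. The greater SDs in OCM1 come with the replicate 1 arrays, the lowest of both OCM1 groups.

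As a description, the CANT1 difference of ALDH1A3 in OCM1 was 2.74 ± 0.49 over 12 arrays, or 6.66-fold. It was 2.95 on replicate 1 and 2.63 ± 0.10 on replicates 2 and 3. With the probe set used, the sets were thus of like size. Without the wild type array that stood apart, the difference was 2.18 ± 0.45. In MUM2B, where the gene was tested, the difference was -0.08 ± 0.49 (95% interval -1.18 to 1.03, limma adjusted p = 1.00). That error shares its spread with the OCM1 arrays; a fit on only the 6 MUM2B arrays gave -0.08 ± 0.17 (limma adjusted p = 0.998). There it read -0.55 on replicate 1 and 0.16 ± 0.10 on replicates 2 and 3 (limma adjusted p = 0.281), so the sign turned between sets and neither value passed. The OCM1 difference minus the MUM2B difference was 2.81 ± 0.69, also a description.

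Of the 5 probe sets of ALDH1A3, 4 read a difference of 2.63 to 2.85 in OCM1 on replicates 2 and 3, and the fifth, with a signal of 100 on only 2 arrays, read 0.32. On replicate 1 they ranged from -0.13 to 2.95, the used one being the highest. The other bright ones read 1.42, 0.62 and 1.34 there, below their values on replicates 2 and 3. The average over probe sets gave 1.92 ± 0.28 over 12 arrays. Thus the direction in OCM1 was shared by all 5 on replicates 2 and 3 and by 4 on replicate 1.

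**Figure D1:**
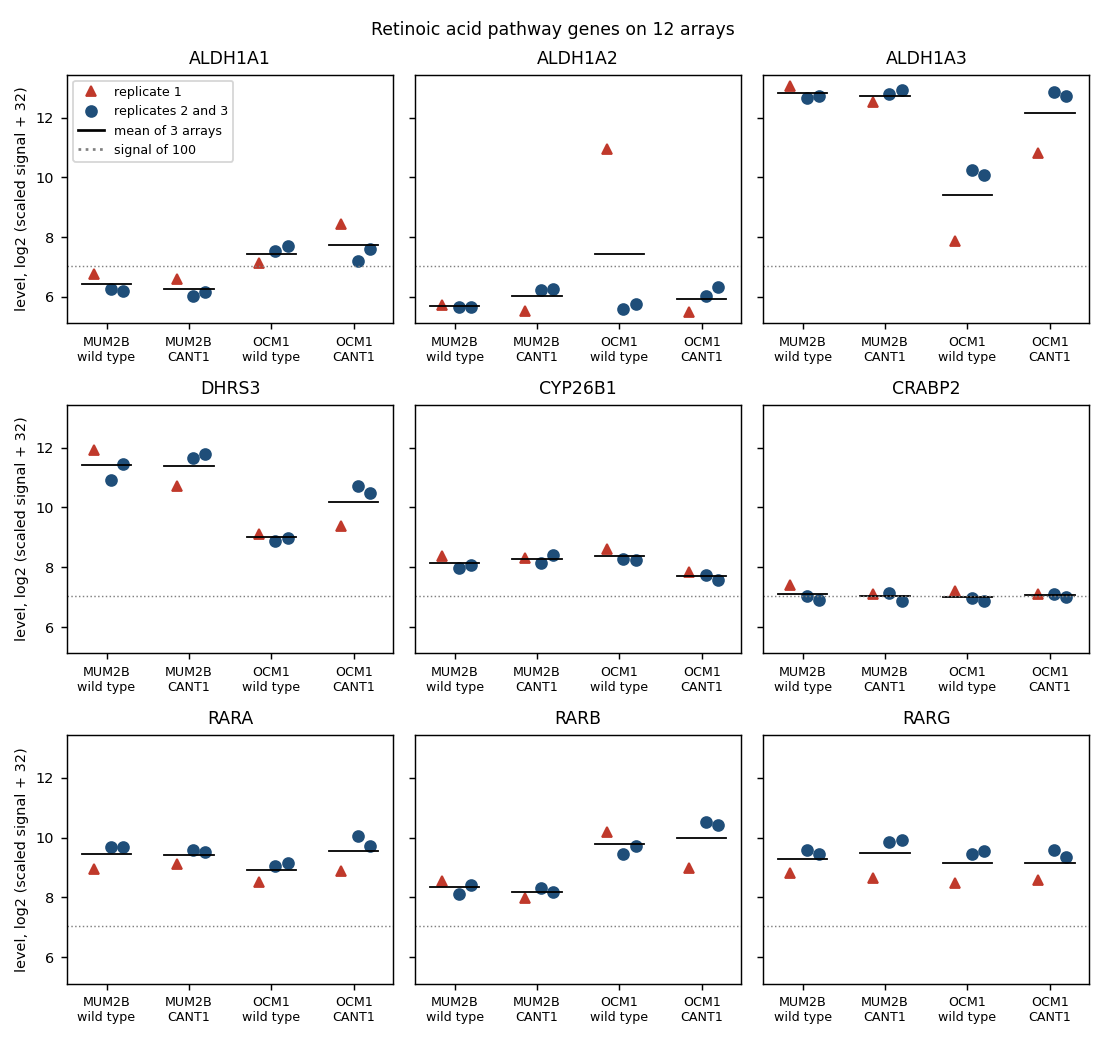
Level of each of the 9 genes, as log2 of the scaled signal plus 32, on every array of the 4 groups (red triangles replicate 1, blue circles replicates 2 and 3, black lines means of 3 arrays, dotted line a signal of 100). ALDH1A3 is lowest on the 3 wild type OCM1 arrays (7.87 to 10.25), DHRS3 is lower in OCM1 than in MUM2B, and ALDH1A2 is above the dotted line on 1 array only.

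ALDH1A1, an isozyme of the same step, differed between the lines, and its CANT1 differences did not pass. Wild type MUM2B read 6.76, 6.28 and 6.21 on replicates 1 to 3, and MUM2B with CANT1 6.61, 6.02 and 6.15. Wild type OCM1 read 7.12, 7.52 and 7.69, and OCM1 with CANT1 8.45, 7.21 and 7.58. All 6 OCM1 arrays exceeded a signal of 100 and all 6 MUM2B arrays fell short of it. The lines did not overlap and the groups within a line did. ALDH1A1 was higher in OCM1 by 1.26 ± 0.19 (limma adjusted p = 0.000431), 1.10 on replicate 1 and 1.34 ± 0.09 on replicates 2 and 3. It entered this test through its OCM1 arrays alone, and with no filter on any gene the limma adjusted p was 0.000809. With signals under 100 set to 100, which is the filter used here and not a detection limit, it was at least 1.47-fold higher. Its CANT1 difference in OCM1 was 0.30 ± 0.27 (limma adjusted p = 0.761), made of 1.33 on replicate 1 and -0.21 ± 0.13 on the others, and -0.09 without the wild type array that stood apart. In MUM2B it was -0.16 ± 0.27 (adjusted p = 1.00). The 3 probe sets gave -0.21 to -0.18 in OCM1 and 1.34 to 1.40 between lines on replicates 2 and 3. On replicate 1 they gave 1.10 to 1.37 in OCM1 and 0.73 to 1.10 between lines.

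ALDH1A2, the isozyme best known from the embryo, was near the bottom of the scale on 11 arrays, from 5.49 to 6.33. The remaining array, wild type OCM1 of replicate 1, read 10.95, a signal of 1951 where the other 11 had 13.1 to 48.2. A second probe set showed the same array at 8.83 and the third read no more than 5.94 anywhere. The high value belongs to the array that stood apart from its line. It set the replicate 1 difference in OCM1 at -5.46, against 0.49 on replicates 2 and 3, and the gene was not tested.

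DHRS3, which returns retinaldehyde to retinol, was the member whose levels most resembled those of ALDH1A3. It read 11.91, 10.92 and 11.47 in wild type MUM2B and 10.72, 11.64 and 11.80 in MUM2B with CANT1. In wild type OCM1 it read 9.12, 8.89 and 8.98, a spread of 0.11 SD, and with CANT1 9.37, 10.72 and 10.48. Each OCM1 array with CANT1 was thus above each wild type one, by little on replicate 1, and the highest of them touched the lowest MUM2B array. The MUM2B groups overlapped.

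The CANT1 difference of DHRS3 in OCM1 was 1.19 ± 0.38 over 12 arrays and did not pass (limma adjusted p = 0.350; 1.42 ± 0.42, adjusted p = 0.162, without the wild type array that stood apart). It was 0.26 on replicate 1. DHRS3 rose 3.17-fold in OCM1 on replicates 2 and 3 (1.66 ± 0.16, limma adjusted p = 4.89e-05) and 1.44-fold in MUM2B (0.53 ± 0.16, adjusted p = 0.0324). In MUM2B replicate 1 read -1.19, and the 12 arrays gave -0.05 ± 0.38 (adjusted p = 1.00). The 3 probe sets read 1.66, 0.99 and 0.06 in OCM1 on those replicates, the last with a signal of 100 on 3 arrays only. Averaging them gave 0.73 ± 0.22 over 12 arrays (limma adjusted p = 0.296).

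CYP26B1, which breaks retinoic acid down, was lowest in OCM1 cells with CANT1. It read 7.84, 7.74 and 7.59 there against 8.62, 8.28 and 8.26 in wild type OCM1, and no array of another group was as low. MUM2B read 8.37, 7.97 and 8.07 as wild type and 8.30, 8.15 and 8.42 with CANT1, overlapping each other and wild type OCM1. The OCM1 difference was -0.66 ± 0.12 over 12 arrays (limma adjusted p = 0.0937), with -0.78 on replicate 1. CYP26B1 fell by 0.60 ± 0.11 on replicates 2 and 3 (limma adjusted p = 0.00279). Without the wild type MUM2B array of replicate 1 the fit passed it, at -0.66 and adjusted p = 0.0481; the cause was not tested. Its other probe set read 0.16 in OCM1 on replicates 2 and 3 and -0.22 on replicate 1, so the fall rests on 1 of 2 probe sets. Averaging both gave -0.32 ± 0.10 (adjusted p = 0.343).

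CRABP2, the carrier of retinoic acid to its receptors, lay at the signal of 100 in all 4 groups, with means of 7.01 to 7.11. The groups overlapped throughout. Its CANT1 difference was -0.07 ± 0.12 in MUM2B (95% interval -0.34 to 0.20, limma adjusted p = 1.00) and 0.06 ± 0.12 in OCM1 (-0.21 to 0.34, adjusted p = 0.902). The intervals leave room for changes of up to 0.34.

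RARA, a receptor expressed in most tissues, read 8.51, 9.05 and 9.16 in wild type OCM1 and 8.90, 10.06 and 9.71 in OCM1 with CANT1. MUM2B read 8.96, 9.68 and 9.69 as wild type and 9.11, 9.59 and 9.52 with CANT1. Within each set the wild type OCM1 arrays were the lowest, while over both sets the groups overlapped. The OCM1 difference was 0.65 ± 0.14 over 12 arrays (limma adjusted p = 0.163) and 0.38 on replicate 1. RARA rose 1.72-fold on replicates 2 and 3 (0.78 ± 0.12, limma adjusted p = 0.000900). The MUM2B difference was -0.04 ± 0.14 (adjusted p = 1.00). The used probe set stood alone among 10: the other 9 read -0.07 to 0.31 in OCM1 on replicates 2 and 3, and averaging all gave 0.18 ± 0.10 over 12 arrays (adjusted p = 0.598).

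RARB, a receptor whose own gene is a known retinoic acid target, was higher in OCM1 than in MUM2B. Wild type MUM2B read 8.55, 8.12 and 8.40 and MUM2B with CANT1 7.98, 8.33 and 8.20. Wild type OCM1 read 10.18, 9.44 and 9.71 and OCM1 with CANT1 9.002, 10.51 and 10.42. The lines did not overlap, whereas within OCM1 replicate 1 ran one way and replicates 2 and 3 the other. The line difference was 1.62 ± 0.25, or 3.06-fold (limma adjusted p = 0.000579). The CANT1 difference in OCM1 was 0.20 ± 0.36 over 12 arrays (adjusted p = 0.893), from -1.17 on replicate 1 and 0.89 ± 0.12 on replicates 2 and 3, where RARB rose 1.86-fold (limma adjusted p = 0.000541). It was 0.57 ± 0.35 (adjusted p = 0.600) without the wild type array that stood apart. The 3 probe sets read 0.89, 0.79 and 0.05 on replicates 2 and 3, and in MUM2B 0.00 to 0.09. This is the gene whose upstream window, printed above, holds the spaced repeat.

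RARG, the receptor most typical of skin and other epithelia, was flat in OCM1. Replicates 2 and 3 read 9.46 and 9.57 in wild type OCM1 and 9.57 and 9.34 with CANT1, and replicate 1 read 8.48 and 8.59. The OCM1 difference was 0.00 ± 0.14 (95% interval -0.30 to 0.30, limma adjusted p = 0.999). In MUM2B the values were 8.82, 9.58 and 9.44 as wild type and 8.65, 9.84 and 9.93 with CANT1, so replicates 2 and 3 with CANT1 lay above the wild type arrays and replicate 1 did not. RARG rose 1.30-fold in MUM2B on replicates 2 and 3 (0.38 ± 0.11, limma adjusted p = 0.0260), with -0.17 on replicate 1 and 0.19 ± 0.14 over 12 arrays (adjusted p = 1.00). Of its 5 probe sets, 4 read 0.38 to 0.97 there and the dimmest -0.11.

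**Figure D2:**
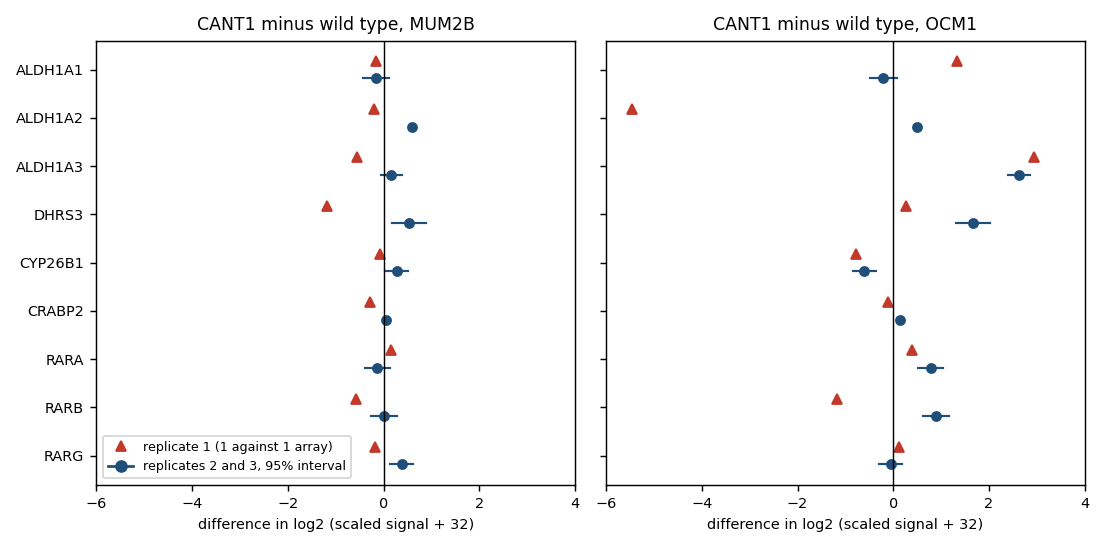
CANT1 minus wild type for each gene in MUM2B (left) and OCM1 (right), in log2 of the scaled signal plus 32. Red triangles are replicate 1, 1 array against 1; blue circles are replicates 2 and 3, with 95% intervals where the gene was tested. In OCM1 the sets have the same sign for ALDH1A3 (2.95 and 2.63), DHRS3, RARA and CYP26B1, and opposite signs for the other 5 genes, with the widest gaps for ALDH1A2, RARB and ALDH1A1.

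Counted over the list, none of the 8 tested members passed in MUM2B over 12 arrays by limma, none had an unadjusted p under 0.05 (1.72% of all genes did), and 0% of all 12711 genes passed. In OCM1 none of the 7 members other than ALDH1A3 passed. An unadjusted p under 0.05 was found for 3 of them, where 9.23% of all genes had one. Of all genes 0.102% passed (13 genes, but 139 without the wild type array of replicate 1 that stood apart, and 81 without the wild type MUM2B array of replicate 1). On replicates 2 and 3 the background was far higher. There 2 of 7 members rose in MUM2B, RARG and DHRS3, where 25% of genes passed. In OCM1 3 of 6 rose, DHRS3, RARA and RARB, and CYP26B1 fell, where 23.3% passed. The median difference of the tested members in OCM1 was 0.20 over 12 arrays and 0.36 on replicates 2 and 3, against 0.00 and 0.04 over all genes tested. The ACTB ratio on replicates 2 and 3 was 0.666 to 0.750 in wild type OCM1 and 0.845 to 0.911 with CANT1, and 0.473 to 0.550 and 0.526 to 0.584 in MUM2B. Its part in these results was not tested. The summed pigment marker signal differed little there, 82266 to 84545 in wild type OCM1 and 83243 to 86515 with CANT1.

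The effect of CANT1 was compared between the lines gene by gene. Over 12 arrays none of the 7 members passed this test of the difference by limma (adjusted p = 0.416 to 0.956), and 0.0472% of all genes passed. An unadjusted p under 0.05 was found for 3 members and 4.99% of all genes. On replicates 2 and 3 the OCM1 effect exceeded the MUM2B effect for DHRS3 by 1.14 ± 0.22, for RARA by 0.91 ± 0.16 and for RARB by 0.89 ± 0.17, and it was lower for CYP26B1 by -0.87 ± 0.16 (limma adjusted p = 0.00541, 0.00346, 0.00515 and 0.00328). These are 4 of 6 members tested, where 21.8% of genes passed. The same 4 differences read 1.45, 0.23, -0.60 and -0.71 on replicate 1, the opposite sign for RARB. RARG, higher with CANT1 in MUM2B, read -0.43 ± 0.15 and did not pass (adjusted p = 0.0636).

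**Figure D3:**
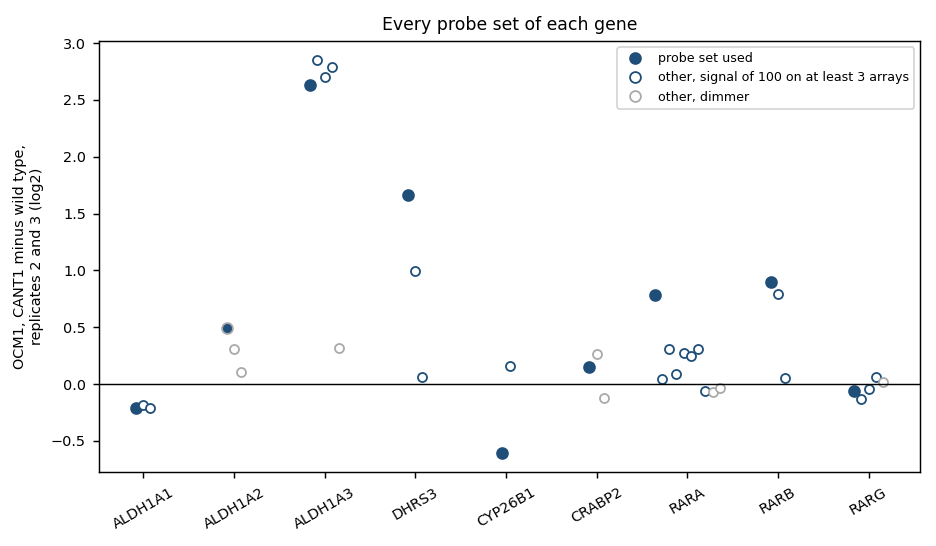
CANT1 minus wild type in OCM1 on replicates 2 and 3 (log2) for every probe set of each gene; filled circles are the probe sets used, open blue circles others with a signal of 100 on at least 3 arrays, grey circles dimmer ones. The ALDH1A3 probe sets, but for the dimmest, lie between 2.63 and 2.85, while for RARA and CYP26B1 the used probe set (0.78 and -0.60) is apart from the others.

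Between the lines, averaged over wild type and CANT1, 3 of 7 members passed over 12 arrays: ALDH1A1 and RARB were higher in OCM1 and DHRS3 was lower. ALDH1A1 had met the filter only through OCM1, the line where it was higher. The background was 48.8% of genes. DHRS3 was 3.52-fold lower, a difference of -1.81 ± 0.27 (limma adjusted p = 0.000384). ALDH1A3 was lower by -2.00 ± 0.35 as a description, with -3.44 on replicate 1 and -1.28 on replicates 2 and 3. RARA (-0.19 ± 0.10, limma adjusted p = 0.138), RARG (-0.21 ± 0.10, 0.0995), CYP26B1 (-0.16 ± 0.09, 0.153) and CRABP2 (-0.04 ± 0.09, 0.731) did not pass. RARA passed without the OCM1 array of CANT1 replicate 2 (-0.27, adjusted p = 0.0319) and RARG without the MUM2B array of CANT1 replicate 1 (-0.27, adjusted p = 0.0413). CYP26B1 passed after quantile normalization (-0.20, adjusted p = 0.0479). Averaging over probe sets gave -1.19 for DHRS3 and 1.03 for RARB, both still passing. Of 6 members tested on replicates 2 and 3, where 73.8% of genes passed, 2 were higher and 2 lower, the added one being RARG (limma adjusted p = 0.0246). Marker lists moved with this comparison: pigment markers as given above, and the summed signal of 8 epithelial markers, 21847 to 36156 in MUM2B and 2142 to 2805 in OCM1, with 5 and 3 of them at 100 or more. In that list KRT7, KRT8, KRT18 and KRT19 were the ones without overlap that were higher in MUM2B, while EPCAM and CDH1 stayed low in both lines and ESRP1 reached 311 in OCM1 but no more than 40.5 in MUM2B. The 7 endothelial markers summed to 2841 to 5149 in MUM2B and 473 to 628 in OCM1, and the 8 fibroblast markers to 565 to 807 in MUM2B and 552 to 1877 in OCM1. The 7 immune markers overlapped, at 470 to 800 in MUM2B and 524 to 962 in OCM1. The part of these markers in the line differences was not tested.

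**Figure D4:**
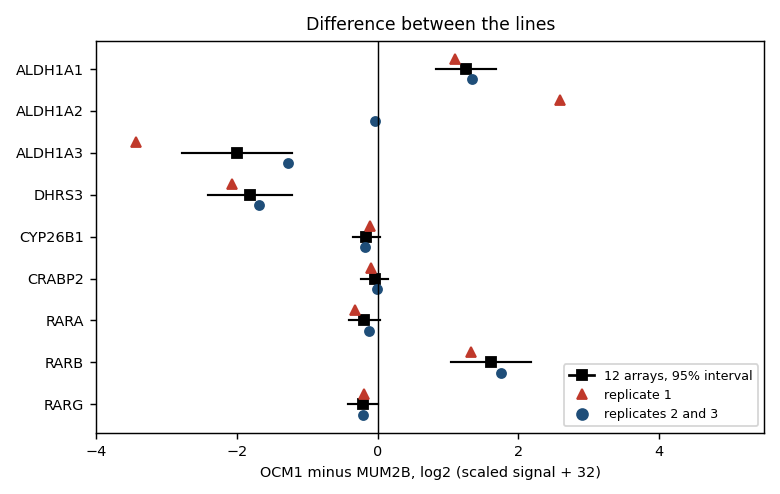
OCM1 minus MUM2B for each gene, averaged over wild type and CANT1, in log2 of the scaled signal plus 32; black squares are the 12-array fit with 95% intervals, red triangles replicate 1, blue circles replicates 2 and 3. ALDH1A1 (1.26) and RARB (1.62) lie to the right of 0 and DHRS3 (-1.81) and ALDH1A3 (-2.00) to the left in both sets, and ALDH1A2 is far to the right on replicate 1 only.

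The tested genes whose levels tracked those of ALDH1A3 most closely over the 12 arrays, after each set's mean was subtracted, were OSBPL10, an oxysterol binding protein gene, SDC4, a heparan sulfate proteoglycan gene, SFRP1, a secreted Wnt antagonist gene, SRPX2 and RNF19A. Their Pearson r was 0.988, 0.974, 0.960, 0.947 and 0.946 (n = 12 arrays), and 0.988, 0.936, 0.974, 0.924 and 0.953 on the 8 arrays of replicates 2 and 3. The arrays share lines and groups, so these values describe likeness only. Picked for this likeness, each of the 5 was lowest in wild type OCM1, a pattern that comes with the choice. SFRP1 averaged 8.03 there, 11.63 in OCM1 with CANT1, and 12.42 and 12.56 in wild type and CANT1 MUM2B. Among the members, r was 0.863 for DHRS3 and 0.811 for RARA, 0.453 for RARG and 0.382 for CRABP2. It was -0.371 for CYP26B1, -0.466 for ALDH1A1 and -0.518 for RARB.

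Genes around the pathway were read from 4 lists, and some genes, NRIP1 among them, stand in a pair of these lists. No gene of any list passed in either line or in the difference over 12 arrays by limma, and 1 gene over the lists, ALDH7A1, had an unadjusted p under 0.05 in MUM2B. Of 36 genes that take up, store or convert retinoids, 16 were tested over 12 arrays. In OCM1 the unadjusted p was under 0.05 for 1 of them, RLBP1, a binding protein of 11-cis-retinaldehyde in the visual cycle (1.05 ± 0.28, limma adjusted p = 0.232). It averaged 8.10 ± 0.63 SD in wild type OCM1, 9.15 ± 0.24 with CANT1, and 6.38 and 6.47 in MUM2B. RLBP1 rose by 0.55 ± 0.10 in OCM1 on replicates 2 and 3 (limma adjusted p = 0.00265), 1 of 2 that rose while 1 fell among 14, where 23.3% of all genes passed. In MUM2B 3 of 14 rose and 1 fell, where 25% passed, so both shares lay near the background. The list's median in OCM1 was -0.01 over 12 arrays against 0.00 over all genes.

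Between the lines 4 of those 16 were higher in OCM1 and none lower, including RLBP1 (2.20 ± 0.20, limma adjusted p = 1.50e-05, and at least 2.99-fold with signals under 100 set to 100), DGAT1, which esterifies retinol (0.64 ± 0.09, adjusted p = 0.000302), and RDH13, a retinol dehydrogenase family gene (0.64 ± 0.10, adjusted p = 0.000504). RLBP1 is thus higher in OCM1 as ALDH1A1 and RARB are, but it met the filter through OCM1 alone. At 4 of 16 the share was below the 48.8% of all genes.

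Of 24 receptor partners and cofactors, 17 were tested. In OCM1 TRIM24, a cofactor that binds nuclear receptors, had the smallest p (-0.39 ± 0.14, limma adjusted p = 0.422), with values of -0.66 on replicate 1 and -0.26 on the others. In OCM1 6 of 16 rose on replicates 2 and 3 and none fell, and 1 rose and 5 fell in MUM2B, none of them with the same sign on replicate 1 (23.3% of all genes passed in OCM1 and 25% in MUM2B). The median on replicates 2 and 3 in OCM1 was 0.16 against 0.04 over all genes. Between the lines 6 of 17 were higher in OCM1 and 5 lower, where 48.8% of all genes passed. PRAME, a repressor of retinoic acid receptor signalling, averaged 12.03 and 12.71 in wild type and CANT1 OCM1 and 5.60 and 5.63 in MUM2B, a difference of 6.75 ± 0.28 (limma adjusted p = 7.94e-08). All its MUM2B signals were under 100, so it met the filter through OCM1 alone. With those signals set to 100 it was at least 40.0-fold higher. TRIM24 (1.84 ± 0.10) and EZH2, a polycomb methyltransferase (1.18 ± 0.26), were also higher (limma adjusted p = 4.67e-07 and 0.00424). NRIP1, a nuclear receptor corepressor, was lower by -2.80 ± 0.22, and the receptor partner RXRA by -1.23 ± 0.12 (limma adjusted p = 6.25e-06 and 2.64e-05). RXRA averaged 9.50 and 9.36 in MUM2B and 8.36 and 8.06 in OCM1.

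Of 40 genes known to respond to retinoic acid, 26 were tested. In OCM1 2 of them had an unadjusted p under 0.05, where 9.23% of all genes did: GDF15, a stress-induced secreted factor (1.67 ± 0.35, limma adjusted p = 0.141), and IGFBP6, a binding protein of insulin-like growth factors (1.15 ± 0.34, adjusted p = 0.312). On replicates 2 and 3, 5 of 23 rose in OCM1 and 1 fell, a share near the 23.3% of all genes. They included GDF15 (1.12 ± 0.24, limma adjusted p = 0.00732), the adhesion molecule ICAM1 (0.73 ± 0.13, adjusted p = 0.00225) and IGFBP6 (0.57 ± 0.10, adjusted p = 0.00244), each higher on replicate 1 too. In MUM2B 6 of 23 rose and 1 fell there, where 25% of all genes passed, and none kept its sign on replicate 1. The list's median in OCM1 was 0.08 over 12 arrays and 0.14 on replicates 2 and 3.

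In OCM1 14 of those 26 were lower than in MUM2B and 5 higher, where 48.8% of all genes passed, with a median of -0.46 against 0.07 over all genes. TGM2, tissue transglutaminase and a classical retinoic acid target, averaged 14.06 and 13.99 in wild type and CANT1 MUM2B and 6.36 and 6.01 in OCM1, a difference of -7.84 ± 0.12 (limma adjusted p = 2.80e-10). Its OCM1 signals were all under 100, so it met the filter through MUM2B alone. With those signals set to 100 it was at least 126-fold lower. DKK1, a Wnt antagonist (-4.87 ± 0.25), and the transcription factor SOX9 (-4.64 ± 0.32) were lower too (limma adjusted p = 2.95e-07 and 2.60e-06). Of their 6 OCM1 signals, 4 and 5 were under 100, and setting those to 100 gave -4.51 and -3.64. Both genes met the filter only through MUM2B. GDF15 (2.52 ± 0.25) and the adhesion adaptor NEDD9 (2.13 ± 0.55) were higher in OCM1 (limma adjusted p = 2.60e-05 and 0.00936). The sets were alike for GDF15 (2.47 and 2.55) but not for NEDD9, with 0.38 on replicate 1 and 3.01 on replicates 2 and 3.

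Of 15 further aldehyde dehydrogenases, which act on other substrates, 11 were tested. ALDH7A1, of lysine breakdown, read 0.30 ± 0.13 in MUM2B (limma adjusted p = 1.00) and 0.32 ± 0.13 in OCM1 (0.477). ALDH4A1, of proline breakdown, read 0.76 ± 0.22 in OCM1 (adjusted p = 0.303). In MUM2B 4 of 11 rose on replicates 2 and 3 and none fell, where 25% of all genes passed, among them ALDH7A1 (0.36 ± 0.11, limma adjusted p = 0.0355). In OCM1 2 rose and 2 fell, where 23.3% passed, with ALDH4A1 at 0.37 ± 0.09 (limma adjusted p = 0.0115). ALDH4A1 was also the 1 gene of this list whose effect passed as greater in OCM1 on replicates 2 and 3 (0.49 ± 0.13, limma adjusted p = 0.0189). For 2 genes of the list the effect passed as lower in OCM1, where 21.8% of all genes passed in either direction. Between the lines, where 48.8% of all genes passed, 5 were higher in OCM1, led by ALDH6A1 (1.36 ± 0.19, limma adjusted p = 0.000287), and ALDH3B1 was lower (-1.41 ± 0.15, adjusted p = 4.09e-05).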

How the data were processed

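The values are the deposited ones, 1 per probe set on each of 12 arrays, and were read as log2 intensities from their range; the submitters' processing notes name MAS5, and the log base and normalization are not given in the sources used here. Scanner files were not used here. Values were taken as powers of 2, scaled to a 2% trimmed mean of 500 per array (factors 1.16 to 1.23 on replicate 1, 1.62 to 1.78 on the others), and returned to log2 after adding 32. Control probe sets (102 of 49395) were dropped; 44988 probe sets named 1 gene, 1832 several and 2473 none, by platform annotation updated through gene identifiers. Genes with a signal of 100 on at least 3 arrays (12711, or 12101 on replicates 2 and 3) were tested with limma 3.58.1 in R 4.3.3, with terms for 4 groups and the replicate set, adjusted by Benjamini-Hochberg. Among genes named between the lines, ALDH1A1, RLBP1 and PRAME met this filter on OCM1 arrays alone and TGM2 on MUM2B arrays alone. DKK1 and SOX9 met it only through MUM2B too, since too few of their OCM1 signals reached 100. Their line p-values thus follow a filter met only through the brighter line. The members and gene lists were chosen with earlier results of these data known. Named genes were all members, up to 3 genes per direction and list that passed with the same sign in both sets or, with none, 2 with the smallest p-value, and the 5 genes most like ALDH1A3. On simulated arrays the 12-array fit found 66% and 94% of changes of log2 1 and 2 in MUM2B, 59% and 98% in OCM1, and 90% and 99% between lines. The simulated arrays had independent noise, the same change in both sets and no array that stood apart, unlike the real ones. These shares therefore do not say how many real changes of such sizes the fit would find. Alternatives covered normalization, offset, filter, set term, block, probe set choice and each array left out.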

Additional observations from a re-analysis of the deposited data

Results flagged for a closer look

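On replicates 2 and 3 the CANT1 effect of 4 members differed between the lines by limma's test of the difference. It was greater in OCM1 for DHRS3 (1.14 ± 0.22, adjusted p = 0.00541, from 0.53 in MUM2B and 1.66 in OCM1), RARA (0.91 ± 0.16, adjusted p = 0.00346, from -0.13 and 0.78) and RARB (0.89 ± 0.17, adjusted p = 0.00515, from 0.00 and 0.89), and lower for CYP26B1 (-0.87 ± 0.16, adjusted p = 0.00328, from 0.27 and -0.60). These are 4 of 6 members tested, where 21.8% of all genes passed. None of the 4 passed over 12 arrays, and on replicate 1 the RARB difference had the opposite sign (-0.60). On replicates 2 and 3 the other probe set of CYP26B1 read 0.05 for this difference, and those of RARA -0.26 to 0.33. The other probe sets of DHRS3 read 0.71 and -0.14, and those of RARB 0.79 and -0.04. The test on replicates 2 and 3 used 8 arrays, 2 in each group. Even over 12 arrays the groups held 3 each, too few for a check of single arrays against their group.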

How the results depend on the processing

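The 32 values of the members were computed under 671 alternatives in all; 630 kept their direction and their side of the threshold, 15 passed where the 12-array value had not, none was lost, 22 changed sign (1 of them, DHRS3 in MUM2B, among the 15), and 5 values of ALDH1A3 without a test moved by over 1 standard error. The causes were not tested. In OCM1 13 genes passed over 12 arrays, 21 after quantile normalization, 23 with no filter (18132 genes tested), 5 with no set term, 7 with the replicate block, 1 on only the 6 arrays compared and 2815 on replicates 2 and 3 only. In MUM2B 0 passed by limma (219 had an unadjusted p under 0.05) and 3028 on replicates 2 and 3 only. The difference between lines gave 6, or 3 with no set term, 3 with the replicate block and 2637 on replicates 2 and 3 only. With 1 array left out the counts ran from 0 to 9 in MUM2B, 5 to 139 in OCM1 and 0 to 28 for the difference. On replicates 2 and 3 only, the MUM2B values of ALDH1A3 (0.16), RARB (0.0017) and DHRS3 (0.53) and the ALDH1A1 values in OCM1 (-0.21) and for the difference (-0.046) turned sign. RARA in MUM2B became 0.049 as a mean over probe sets and RARG in OCM1 0.0066 after quantile normalization. With 1 array left out, MUM2B values ran from -0.40 to 0.56 for ALDH1A3, -0.15 to 0.024 for RARA, -0.35 to 0.034 for RARB, -0.15 to 0.024 for CRABP2 and -0.38 to 0.42 for DHRS3. OCM1 values ran from -0.091 to 0.52 for ALDH1A1, -0.042 to 0.76 for RARB and -0.048 to 0.079 for RARG, and the line difference of CRABP2 from -0.073 to 0.0055. The main fit did not pair arrays by replicate number. Over genes, the replicate 2 minus replicate 3 differences correlated between groups at -0.125 to 0.218. With no reference for unpaired arrays and without replicate 1, these values cannot decide whether same-numbered arrays were paired. The replicate block changed no call of a member.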
